A study of Homo sapiens with 26 samples.

Results

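The 9 genes described here encode subunits of AP-1 or its close relatives: JUN, JUNB, JUND, FOS, FOSB, FOSL1, FOSL2, ATF3 and BATF3. They were chosen by symbol and form 9 of the 20163 protein-coding genes of the GENCODE v44lift37 annotation. Every peak that overlapped the body of one of these genes, or the 50 kb on either side of it, was taken as belonging to that gene's window. The 9 windows together covered 989 kb, or 0.0346% of the genome. The peaks came from chromatin immunoprecipitation followed by sequencing (ChIP-seq) in BJ, a widely used fibroblast line from human foreskin, with an antibody against the HALO protein tag. The constructs were HALO-tagged FOXA1, 3 versions of it that the labels name FOXA1dbd, FOXA1nhaa and FOXA1rraa, and HALO-tagged HNF4A, each measured after 48 hours of ectopic expression. What the short names of the versions stand for is not spelled out in the labels. All cells received a HALO-tagged factor, so the peaks describe an introduced, tagged protein in fibroblasts, and the windows have no untransduced control here. Peak lists carry no expression values, so the fibroblast identity of the cells could not be checked against marker genes.

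For each construct the labels give 2 ChIP libraries with 2 inputs, but its peaks come as 1 list, and the read depth behind it is unknown. No replicate error could be computed, differences between constructs went untested, and the text holds no p-value. Intervals are exact 95% intervals (Poisson for counts, Clopper-Pearson for shares) and cover counting error only. FOXA1 had 155652 peaks in all, FOXA1nhaa 105591, FOXA1rraa 71202, HNF4A 38291 and FOXA1dbd 28831. The FOXA1rraa list was not independent of the others. Of its 19 peaks in the windows, 7 had the exact coordinates of a FOXA1 peak and 10 those of a FOXA1nhaa peak, which left 2 rows of its own, both at JUNB. The peak names of these 2 rows begin with Nonspecific_FOX, a prefix whose meaning is not given in the sources used here. Values for FOXA1rraa are therefore given as what the list holds, and overlaps with it are also given without the rows it shares with FOXA1.

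AP-1 is a family of dimers of basic leucine zipper proteins. The JUN proteins pair with each other or with FOS proteins. ATF3 and BATF3 pair mainly with JUN proteins, and the dimers bind the palindrome-like site TGAGTCA or TGACTCA. In fibroblasts FOS, FOSB, JUN, JUNB and ATF3 are known as immediate early genes that respond to serum, growth factors and stress, and AP-1 occupies many fibroblast enhancers. FOXA1 is a forkhead factor that can bind its site in closed chromatin, and HNF4A is a nuclear receptor of liver, gut and kidney.

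HNF4A peaks were dense at the AP-1 genes and FOXA1 peaks were not. The windows held 108 HNF4A peaks, or 10.9 per 100 kb (8.95 to 13.2), where the median protein-coding gene had 2.29 per 100 kb. All 9 genes lay above that median, as 50% of protein-coding genes do by construction, and 7 of the 9 lay at or above the 90th percentile, which 10.0% of genes reach. The 36 FOXA1 peaks amounted to 3.64 per 100 kb (2.55 to 5.04), against a median of 4, with 4 of 9 genes above the median and 0 of 9 at the 90th percentile. The FOXA1dbd list had 10 peaks in the windows (1.01 per 100 kb, 0.485 to 1.86, median of genes 0.743). The FOXA1nhaa list had 29 (2.93, 1.96 to 4.21, median 2.62) and the FOXA1rraa list 19 (1.92, 1.16 to 3, median 1.71). For all 4 forkhead lists the median of genes lay inside the counting interval of the pooled AP-1 windows. Gene by gene, the median member had 2.80 peaks per 100 kb for FOXA1, 0.801 for FOXA1dbd, 1.96 for FOXA1nhaa and 0.933 for FOXA1rraa, so that for FOXA1nhaa and FOXA1rraa it lay below the median gene although the windows together lay above it. The FOXA1 density over the whole genome, 5.44 per 100 kb, lay above the interval of the AP-1 windows.

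At least 1 HNF4A peak fell in all 9 windows, a call made for 83.5% of protein-coding genes. A FOXA1 peak fell in 8 of 9 windows (87.1% of genes), a FOXA1dbd peak in 5 (59.6%), a FOXA1nhaa peak in 7 (81.7%) and a FOXA1rraa peak in 7 (74.9%). Peaks of all 5 lists fell in 5 of 9 windows, those of JUN, FOS, FOSL2, ATF3 and BATF3, against 50.3% of genes. The shares of members with a peak were thus near those of all genes, and it was the number of HNF4A peaks per window, not their presence, that set the AP-1 genes apart from the median gene. The ATF3 and BATF3 windows overlap on chromosome 1, and 3 FOXA1 peaks, 1 FOXA1dbd peak and 2 HNF4A peaks lie in both. These are counted in both genes when genes are described and once in the totals.

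**Figure D1:**
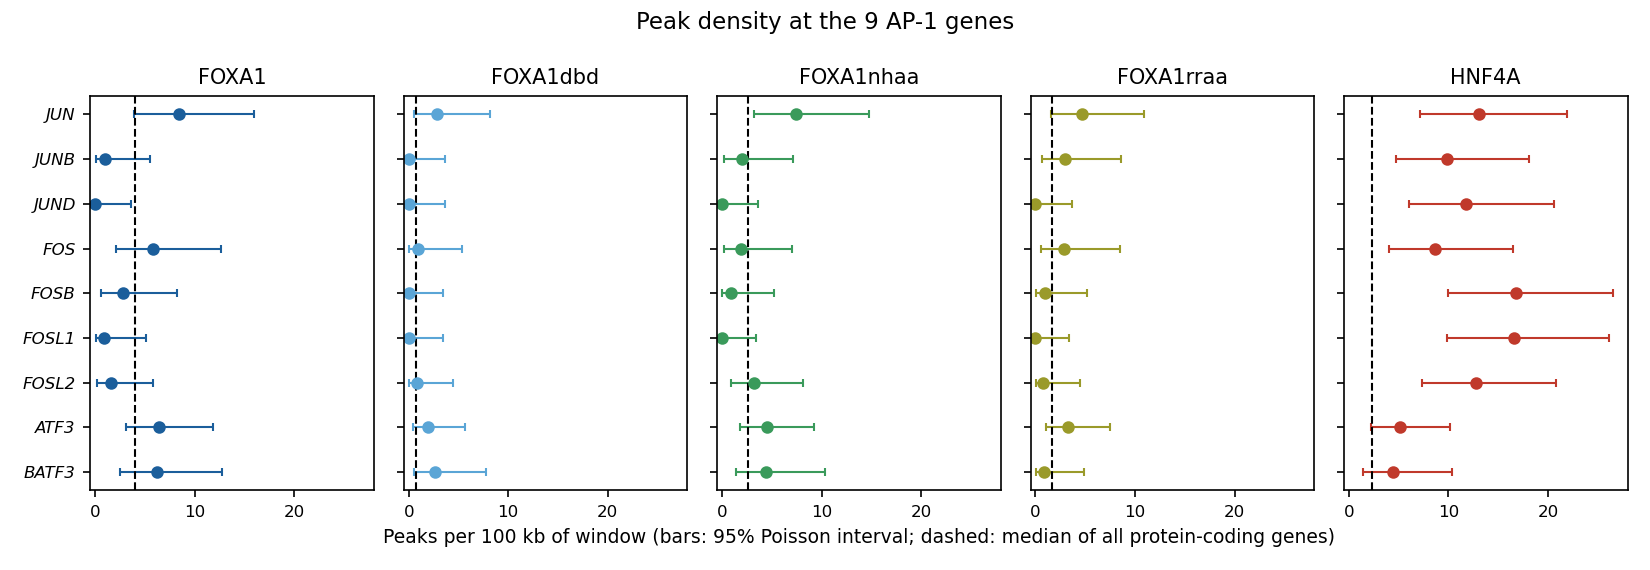
Peaks per 100 kb in the window of each AP-1 gene (horizontal axis, linear) for each of the 5 lists, drawn as points with exact Poisson intervals for counting error, beside the median of 20163 protein-coding genes. HNF4A values run from 4.41 at BATF3 to 16.8 at FOSB and all exceed the median of 2.29, while FOXA1 values run from 0 at JUND to 8.40 at JUN around a median of 4.

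Among the JUN genes, which encode the subunits on which the FOS proteins depend, HNF4A was present at all and FOXA1 almost only at JUN. JUN (ENSG00000177606, minus strand, chr1:59242517-59249720 in GRCh37/hg19, the build used throughout) had 9 FOXA1 peaks, 3 FOXA1dbd peaks, 8 FOXA1nhaa peaks, 5 FOXA1rraa peaks and 14 HNF4A peaks. Its FOXA1 value of 8.40 per 100 kb was the highest of the 9 genes and equalled or exceeded that of 73.3% of protein-coding genes. Its HNF4A value was 13.1 per 100 kb, at or above 98.7% of genes. The JUN window contains no other protein-coding gene, and its FOXA1 peaks lie in JUN itself (3 peaks) and in lncRNA genes on either side.

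JUNB (chr19:12902300-12904129, plus strand), a subunit often set against JUN in growth control, had 1 FOXA1 peak, 0 FOXA1dbd peaks, 2 FOXA1nhaa peaks, 3 FOXA1rraa peaks and 10 HNF4A peaks. The HNF4A value was 9.82 per 100 kb, at or above 95.5% of genes. JUND (chr19:18390504-18392432, minus strand), the JUN gene that is expressed in resting cells, was the only member without a peak in any of the forkhead lists, and it had 12 HNF4A peaks (11.8 per 100 kb, at or above 97.7% of genes). No FOXA1 peak at JUND allows up to 3.69 peaks by counting error alone, whereas the interval at JUN ran from 4.12 to 17.1 peaks. The JUNB and JUND windows lie in gene-rich sequence with 8 and 5 other protein-coding genes and a GC content of 54.9% and 54.7%. The JUN window had 42.7%.

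The FOS genes encode partners that cannot pair with each other and depend on a JUN protein. FOS (chr14:75745529-75748933, plus strand) had 6 FOXA1 peaks, 1 FOXA1dbd peak, 2 FOXA1nhaa peaks, 3 FOXA1rraa peaks and 9 HNF4A peaks. FOSB (chr19:45971253-45978437, plus strand) had 3, 0, 1 and 1 peaks in the forkhead lists in the same order and 18 HNF4A peaks. FOSL1 (chr11:65659520-65668044, minus strand), which encodes FRA1, had 1, 0, 0 and 0 and also 18 HNF4A peaks. FOSL2 (chr2:28615315-28640184, plus strand), which encodes FRA2, had 2, 1, 4 and 1 and 16 HNF4A peaks. The HNF4A values of FOSB and FOSL1, 16.8 and 16.6 per 100 kb, were the highest of the 9 genes and each lay at or above 99.8% of protein-coding genes. FOS reached 8.70 (93.4%) and FOSL2 12.8 (98.6%). FOSL1 was therefore high for HNF4A and among the lowest for FOXA1 (0.921 per 100 kb, at or above 19.7% of genes). Of the 18 HNF4A peaks at each of FOSB and FOSL1, 11 and 13 lay within 1000 bp of a start of any protein-coding gene. Without such peaks the HNF4A values were 6.53 at FOSB and 4.61 at FOSL1. Both were then below JUN (10.3), JUND (8.83), FOSL2 (8.81) and FOS (7.74).

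ATF3 and BATF3, a stress-induced factor and a leucine zipper factor of dendritic cells and lymphocytes, are neighbours on chromosome 1. ATF3 (chr1:212738676-212794119, plus strand) had 10 FOXA1 peaks, 3 FOXA1dbd peaks, 7 FOXA1nhaa peaks, 5 FOXA1rraa peaks and 8 HNF4A peaks. BATF3 (chr1:212859759-212873182, minus strand) had 7, 3, 5, 1 and 5. Their HNF4A values were the lowest of the 9 genes, 5.15 per 100 kb at ATF3 (at or above 79.1% of genes) and 4.41 at BATF3 (73.5%). Their FOXA1 values, 6.43 and 6.17, stood next below that of JUN. Ordered by HNF4A peaks per 100 kb, with all peaks counted, the genes ran FOSB, FOSL1, JUN, FOSL2, JUND, JUNB, FOS, ATF3 and BATF3. The counting intervals overlapped even between the ends of that order, at 10.7 to 28.4 peaks for FOSB and 1.62 to 11.7 peaks for BATF3, so neighbours in it are not distinguishable.

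**Figure D2:**
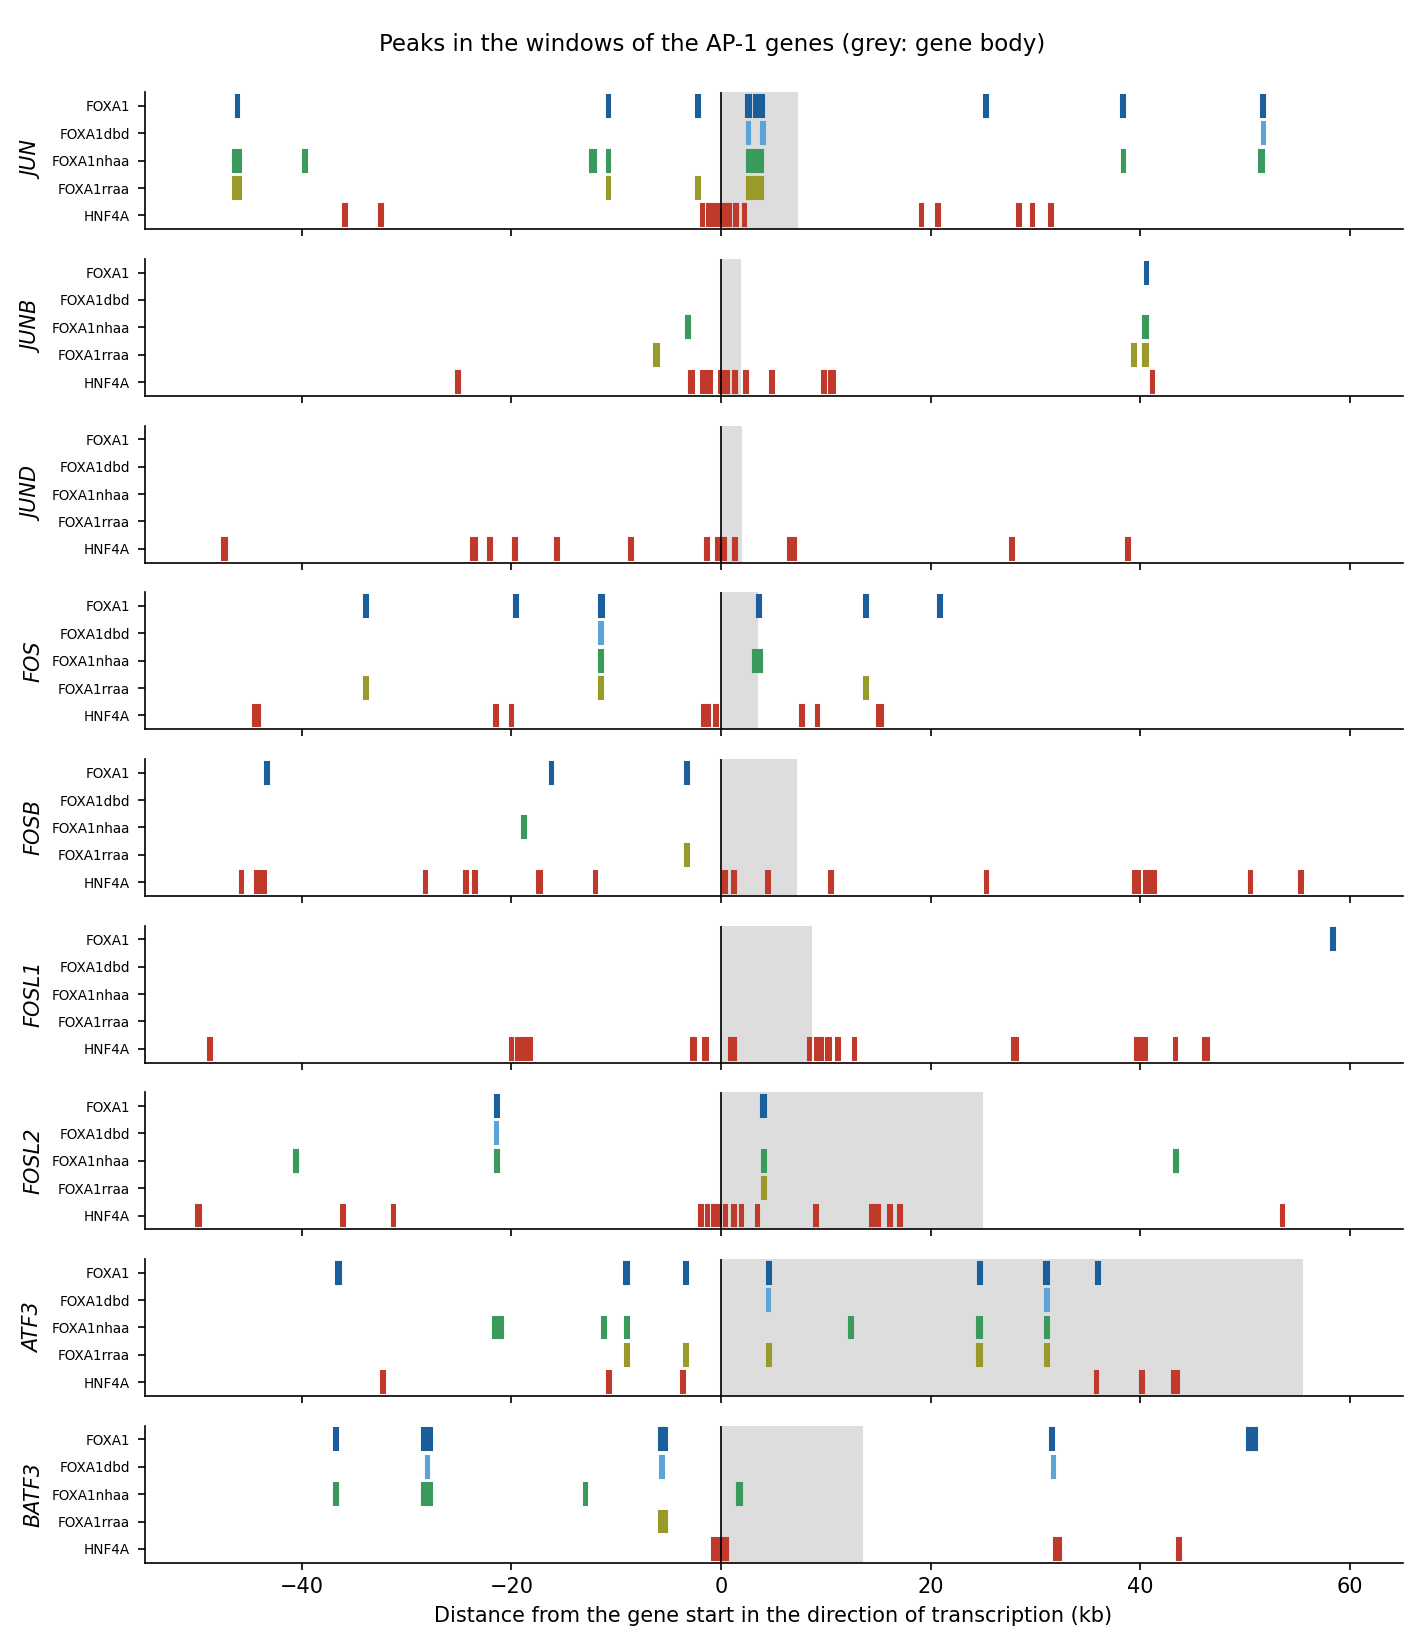
Position of each peak in the 9 windows relative to the start of the gene (kb, negative upstream, in the direction of transcription), 1 row of marks for each of the 5 lists and 1 panel for each gene, with narrow peaks widened to stay visible. Peaks in both the ATF3 and the BATF3 window are drawn under the gene with the nearer start. Every panel holds HNF4A marks, and the JUND panel holds no others.

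Few forkhead peaks lay at gene starts, in the AP-1 windows as in the whole lists. A FOXA1 peak within 1000 bp of an annotated transcription start of the gene was found for 1 of 9 genes, FOSL2, where 26.9% of protein-coding genes had one. FOXA1dbd had 0 of 9 (8.14% of genes), FOXA1nhaa 2 of 9, FOSL2 and BATF3 (21.6%), and FOXA1rraa 1 of 9, FOSL2 (16.4%). Counting starts of any protein-coding gene, 8.33% of the FOXA1 peaks in the windows lay within 1000 bp of one, against 7.24% of the whole FOXA1 list. For FOXA1rraa it was 2 of 19 peaks, against 7.37% of its list. The FOSL2 peak, chr2:28619160-28619605 with a score of 197, lies 4068 bp inside the gene in an intron and counts through an alternative start. By position, 17 of the 36 FOXA1 peaks lay in the upstream flanks, 11 in the downstream flanks, 6 in introns and 1 in an exon. For 29 of the 36, the nearest protein-coding start was that of an AP-1 gene.

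HNF4A peaks lay near an annotated start of every member. All 9 genes had an HNF4A peak within 1000 bp of a start, a call made for 48.1% of protein-coding genes, and 20 of the 108 peaks were of this kind. At JUN there were 3 such peaks, of which those of 23 and 213 bp share a peak name and a score of 155. The widest, chr1:59249450-59250657 scoring 116, lies across the start itself. At JUND, the peak chr19:18391936-18392894 (score 137) is centred 17 bp from the start of the gene. At FOSL2, 5 peaks near its alternative starts lay between positions 28614453 and 28618909 of chromosome 2, with scores of 64 to 137. At FOS a peak of score 137 is centred 491 bp upstream. At ATF3 the peak at a start, chr1:212781687-212782381 (score 115), lies 43358 bp into the gene at an alternative start and not at its 5′ end. An HNF4A peak reached the 250 bp before the gene start at JUN, JUNB, JUND, FOSL2 and BATF3. None did at FOS, FOSB, FOSL1 and ATF3. Another 36 HNF4A peaks were downstream of the genes and 40 upstream. The nearest protein-coding start belonged to an AP-1 gene for 63 of the 108 peaks and to another gene for 45, so part of the HNF4A signal in the crowded windows lies closer to neighbours.

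The excess over the median gene was also present in peaks away from starts. Leaving out each peak within 1000 bp of any protein-coding start removed 46 HNF4A peaks and left 62, or 6.27 per 100 kb (4.80 to 8.03), where the median gene had 0.945, and all 9 genes stayed above that median. In the JUN window, which holds no other protein-coding gene, 11 of the 14 HNF4A peaks were away from starts, and at FOS, another window with no other protein-coding gene, 8 of 9 were. Peaks away from starts were also the larger part at JUND (9 of 12), FOSL2 (11 of 16) and ATF3 (7 of 8). They were the smaller part at JUNB (4 of 10), FOSB (7 of 18), FOSL1 (5 of 18) and BATF3 (2 of 5). With flanks of 10 kb the HNF4A value was 19.1 per 100 kb against a median of 2.33, and with flanks of 100 kb it was 8.10 against 2.31. FOXA1 gave 4.61 against 3.71 and 3.24 against 4.32, and JUND had no FOXA1 peak even with 100 kb. For FOXA1 the median member had 2.99 with 10 kb and 2.41 with 100 kb, and 3 of 9 genes lay above the median gene at each flank. The median GC content of the HNF4A peaks in the windows was 61.0%, against 52.5% over the whole HNF4A list, and 42.6% of them lay within 1000 bp of a protein-coding start, against 34.9% of the list. Their part in the result was not tested.

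Where FOXA1 had a peak, the variants often had one too. Of the 36 FOXA1 peaks, 10 were overlapped by FOXA1dbd (27.8%, 14.2 to 45.2), where 17.3% of all FOXA1 peaks were. FOXA1nhaa overlapped 18 (50%, 32.9 to 67.1, 39.7% of all) and FOXA1rraa overlapped 18 (50%, 39.9% of all, or 30.6% of the 36 without the rows it shares with FOXA1). At least 1 variant overlapped 26 of the 36 (72.2%, 54.8 to 85.8), against 58.5% of all FOXA1 peaks. That count includes 7 FOXA1rraa rows that are FOXA1 rows meeting themselves, and with FOXA1dbd and FOXA1nhaa alone it was 21 of 36 (58.3%, 40.8 to 74.5), against 46.8%. All of the 30.6% comes through rows that FOXA1rraa repeats from FOXA1nhaa, as its own rows overlap no FOXA1 peak. No whole-list value was computed to set beside the 30.6%. The interval of each of the other shares holds the value of the whole list. Read from FOXA1dbd, 10 of its 10 peaks met a FOXA1 peak, against 96.2% of its whole list.

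Sites shared by more variants had higher FOXA1 scores, a value the authors gave each peak and that ranks peaks within a list. The median score was 91.5 for the 10 FOXA1 peaks with no variant, 117.5 for the 10 with 1, 175.5 for the 12 with 2 and 332.5 for the 4 with 3. Over all FOXA1 peaks the medians were 98, 124, 170 and 231, so the order in the AP-1 windows is that of the whole list. The ranges overlapped between neighbouring classes, from 59 to 199 with no variant, 20 to 250 with 1, 107 to 306 with 2 and 242 to 417 with 3. Median peak width also rose over the same classes, at 210, 218, 394 and 476 bp. The part of width in these overlaps, called at 1 bp, was not tested. These classes count rows that FOXA1rraa shares with other lists. With FOXA1dbd and FOXA1nhaa alone, the median score was 105 for 15 peaks with neither, 143 for 14 with 1 and 306 for 7 with both, and over all FOXA1 peaks it was 105, 143 and 206.

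**Figure D3:**
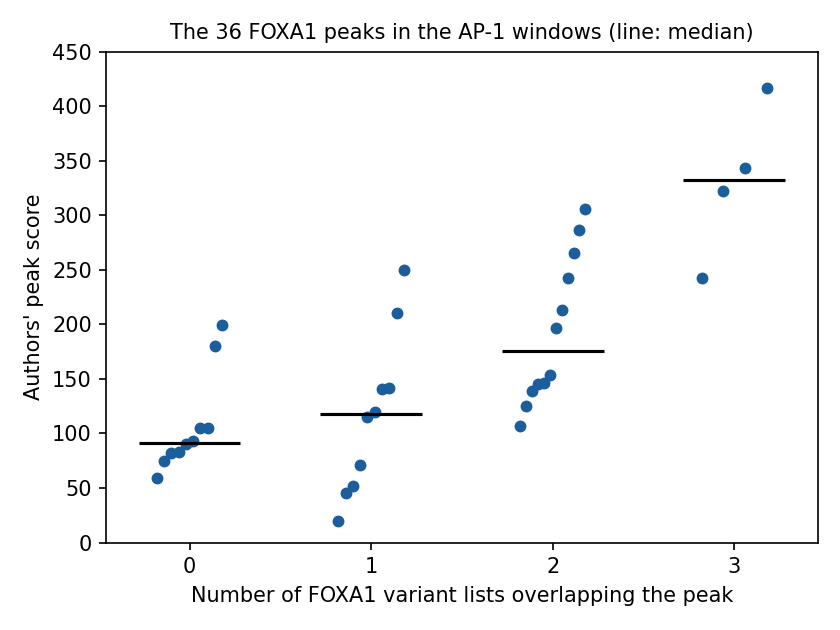
Authors' score of each of the 36 FOXA1 peaks in the AP-1 windows (vertical axis, linear) by the number of variant lists that overlap it, from 0 to 3, FOXA1rraa rows shared with other lists included. Points are peaks and lines mark medians, which rise from 91.5 with no variant to 332.5 with 3.

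The 4 FOXA1 peaks that all 3 variant lists overlapped lay at JUN (2 peaks), FOS and ATF3. At all 4 the FOXA1rraa row is a FOXA1nhaa row with the same coordinates, so only FOXA1, FOXA1dbd and FOXA1nhaa have rows of their own there. The stretches common to the lists are printed with their motif cores because they are the sites on which these constructs coincide. The highest-scoring FOXA1 peak of the 9 windows, chr1:59246895-59247313, lies in the 3′ UTR of JUN, 2616 bp from its start, with a score of 417, at or above 97.5% of the FOXA1 list. FOXA1dbd had its best peak of the windows at the same place, scoring 185 at a fold enrichment of 10.2, and FOXA1nhaa had a peak of score 92 there, a row that the FOXA1rraa list repeats. Next by score came the peak 11415 bp upstream of FOS, chr14:75733888-75734339 (score 343), in an exon of a lncRNA gene, and the ATF3 intron peak chr1:212769451-212769950 (score 322), 31025 bp into the gene. At the FOS site FOXA1dbd had a score of 78 and FOXA1nhaa 79, and at the ATF3 site 101 and 142. Sites in the lists of FOXA1 and 2 variants that hold forkhead cores lie in an ATF3 intron 4523 bp from the start, 5671 bp upstream of BATF3 and 40565 bp downstream of the JUNB start. The FOXA1 peak scored 145, 286 and 146 there, and the first 2 of these sites are printed. At these 2 the FOXA1rraa row is the FOXA1 row itself, which leaves FOXA1dbd as the variant with a peak of its own, and at the JUNB site the FOXA1rraa row is the FOXA1nhaa row. The BATF3 and JUNB cores lie outside the central 200 bp of the FOXA1 peak. The BATF3 core lies inside that of the FOXA1dbd peak. Capitals mark the forkhead core (TGTTTAC or TATTTAC, or its reverse complement) and the AP-1 core (TGAGTCA or TGACTCA). All sequences are from the plus strand of GRCh37. The JUN line holds only the core with 11 bases on either side, chr1:59247099-59247127.
JUN 3′ UTR: tccaaatctctTATTTACaaacaacactg
FOS upstream chr14:75733925-75734210: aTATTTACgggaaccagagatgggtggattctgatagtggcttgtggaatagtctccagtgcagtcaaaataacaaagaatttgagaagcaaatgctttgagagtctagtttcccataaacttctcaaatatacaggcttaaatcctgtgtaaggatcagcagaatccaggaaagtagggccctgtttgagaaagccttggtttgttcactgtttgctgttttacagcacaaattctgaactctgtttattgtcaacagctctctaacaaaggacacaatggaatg
ATF3 intron chr1:212769647-212769933: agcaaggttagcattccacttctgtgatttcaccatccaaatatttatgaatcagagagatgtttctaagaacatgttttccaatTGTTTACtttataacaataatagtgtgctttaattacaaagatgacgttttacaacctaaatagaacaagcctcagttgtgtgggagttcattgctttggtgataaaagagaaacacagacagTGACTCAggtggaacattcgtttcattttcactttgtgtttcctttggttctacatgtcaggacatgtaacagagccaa
ATF3 intron chr1:212743108-212743289: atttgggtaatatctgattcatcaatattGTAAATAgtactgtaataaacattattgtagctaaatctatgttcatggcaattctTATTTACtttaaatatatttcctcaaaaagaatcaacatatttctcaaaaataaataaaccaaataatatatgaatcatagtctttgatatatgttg
BATF3 upstream chr1:212878762-212878944: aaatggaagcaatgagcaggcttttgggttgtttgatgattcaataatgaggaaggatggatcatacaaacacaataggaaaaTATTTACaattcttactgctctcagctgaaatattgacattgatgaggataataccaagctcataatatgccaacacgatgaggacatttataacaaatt
The long ATF3 stretch carries a forkhead core at its base 86 and an AP-1 core, TGACTCA, at its base 209. The AP-1 core lies outside the central 200 bp of the FOXA1 peak, while the central 200 bp of the FOXA1dbd and FOXA1nhaa peaks each hold one. The only FOXA1 peak of the windows with an AP-1 core in its central 200 bp was chr1:212900761-212901242 (score 139), in a UTR of NSL1 within the BATF3 window. The short ATF3 stretch holds 2 forkhead cores, 1 on each strand. The FOS stretch has its core at base 2, outside the central 200 bp of the FOXA1 and FOXA1dbd peaks. The central 200 bp of the FOXA1nhaa peak there holds a forkhead core. The second JUN peak with all 3 variants, chr1:59245669-59246213 (score 242), has no core in the stretch that the lists share. At FOSL2, the peak 21376 bp upstream, chr2:28593732-28594145 (score 306), was shared with FOXA1dbd and FOXA1nhaa, and its shared stretch also holds no core.

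Shares of peaks with a core motif did not differ from those of the whole lists by more than counting error. A forkhead core stood in the central 200 bp of 5 of 36 FOXA1 peaks (13.9%, 4.67 to 29.5) and of 18.2% of all FOXA1 peaks. FOXA1 rows give no summit and were searched around their midpoint, so FOXA1 shares are not comparable with those of the other lists. FOXA1dbd had 4 of 10 (40%, 12.2 to 73.8, whole list 22.1%), FOXA1nhaa 5 of 29 (17.2%, 5.85 to 35.8, 13.6%) and FOXA1rraa 3 of 19 (15.8%, 3.38 to 39.6, 20%). HNF4A had 7 of 108 (6.48%, 2.65 to 12.9, 3.25%). The AP-1 core was found in 16 of 108 HNF4A peaks (14.8%, 8.71 to 22.9), against 18.2% of the HNF4A list, and in 1 of 36 FOXA1 peaks (2.78%, 0.0703 to 14.5), against 7.99%. The HNF4 core CAAAGTCCA stood in 2 of 108 HNF4A peaks (1.85%, 0.225 to 6.53) and in 0.992% of the list. Every one of these intervals holds the whole-list share. A missing match says only that these exact letters, on either strand, are not in the window searched.

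The highest-scoring HNF4A peaks lay in the windows of FOSL1 and FOSL2. The highest, chr11:65621513-65622031 which scored 758 at a fold enrichment of 21.5, lies in introns of CFL1 and SNX32 within the FOSL1 window, and the nearest protein-coding start is that of CFL1. The next, chr11:65669326-65669734 (score 659, fold enrichment 19.9), is centred 1486 bp upstream of FOSL1. In a FOSL2 intron, 9055 bp from the start, chr2:28624169-28624571 scored 602 at a fold enrichment of 18.8. Scores of 305 to 441 were the highest in the windows of JUN, JUNB, JUND, FOSB and BATF3, and the best peak of FOS scored 226. The best BATF3 peak, with a score of 320, lies in the ATF3 window too and is also the best there. The lines below give the central 200 bp of the CFL1 and FOSL2 peaks and of ATF3 peaks 3663 and 10677 bp upstream, which show different cores under HNF4A peaks, and the 250 bp before the JUND start, all of which an HNF4A peak covers. The FOSL1 peak of score 659 and both ATF3 peaks were picked after their values were seen, the ATF3 pair for the cores they hold. Capitals mark AP-1 cores, the HNF4 core (TGGACTTTG is its reverse complement) and, at JUND, the ATF/CREB core TGACGTCA.
FOSL1 window chr11:65621693-65621892: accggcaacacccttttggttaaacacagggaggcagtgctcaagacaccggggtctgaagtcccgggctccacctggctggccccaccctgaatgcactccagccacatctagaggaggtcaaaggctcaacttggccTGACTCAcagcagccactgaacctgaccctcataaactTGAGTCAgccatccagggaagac
FOSL2 intron chr2:28624292-28624491: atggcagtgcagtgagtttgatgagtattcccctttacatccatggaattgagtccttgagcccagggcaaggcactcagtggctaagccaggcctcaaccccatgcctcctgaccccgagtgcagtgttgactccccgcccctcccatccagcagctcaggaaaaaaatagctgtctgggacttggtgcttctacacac
ATF3 upstream chr1:212734865-212735064: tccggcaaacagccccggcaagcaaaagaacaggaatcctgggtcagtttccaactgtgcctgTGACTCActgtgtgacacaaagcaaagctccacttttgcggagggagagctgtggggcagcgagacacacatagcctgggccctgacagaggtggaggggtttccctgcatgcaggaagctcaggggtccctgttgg
ATF3 upstream chr1:212727876-212728075: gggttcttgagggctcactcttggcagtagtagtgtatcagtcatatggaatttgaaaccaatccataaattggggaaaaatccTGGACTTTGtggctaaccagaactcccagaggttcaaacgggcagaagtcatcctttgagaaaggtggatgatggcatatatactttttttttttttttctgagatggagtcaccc
JUND promoter chr19:18392433-18392682: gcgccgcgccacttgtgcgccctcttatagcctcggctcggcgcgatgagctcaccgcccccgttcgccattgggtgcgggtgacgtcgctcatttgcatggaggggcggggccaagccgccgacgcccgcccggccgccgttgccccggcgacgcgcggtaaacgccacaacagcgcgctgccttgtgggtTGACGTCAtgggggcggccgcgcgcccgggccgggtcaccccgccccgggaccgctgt
The FOSL1-window site holds 2 AP-1 cores, of both letter forms, and no exact match to the HNF4 core. That core stands in only 0.992% of the HNF4A list, so its absence does not exclude other HNF4 sequences. The first ATF3 site holds 1 AP-1 core, the second an HNF4 core, and the FOSL2 site none of the cores searched. In the 250 bp before the 9 gene starts, TGACGTCA occurred at JUND and at 1.88% of all protein-coding genes. A forkhead core occurred there at JUNB (4.42% of genes), and AP-1 and HNF4 cores at none of the 9 (3.34% and 0.263% of genes).

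HNF4A peaks met or lay close to FOXA1 peaks at several AP-1 genes. Of the FOXA1 peaks, 3 overlapped an HNF4A peak (8.33%, 1.75 to 22.5, 1.68% of all FOXA1 peaks), 1 each at ATF3, BATF3 and FOSB, and the overlaps measured 6, 30 and 14 bp. An HNF4A peak lay within 1000 bp of 12 of 36 FOXA1 peaks, the 3 overlapping ones included (33.3%, 18.6 to 51.0), against 5.43% of all FOXA1 peaks. Read from HNF4A, 14 of 108 peaks had a FOXA1 peak within that distance (13%, 7.27 to 20.8) and 20% of the whole HNF4A list did. The FOXA1-centred share stands beside the HNF4A density of 10.9 per 100 kb given above, and the part of that density in it was not tested. Joined across all lists, the peaks formed 153 sites, of which 126 were in 1 list, 10 in 2, 13 in 3 and 4 in 4, with shared FOXA1rraa rows counted, and no site was in all 5.

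**Figure D4:**
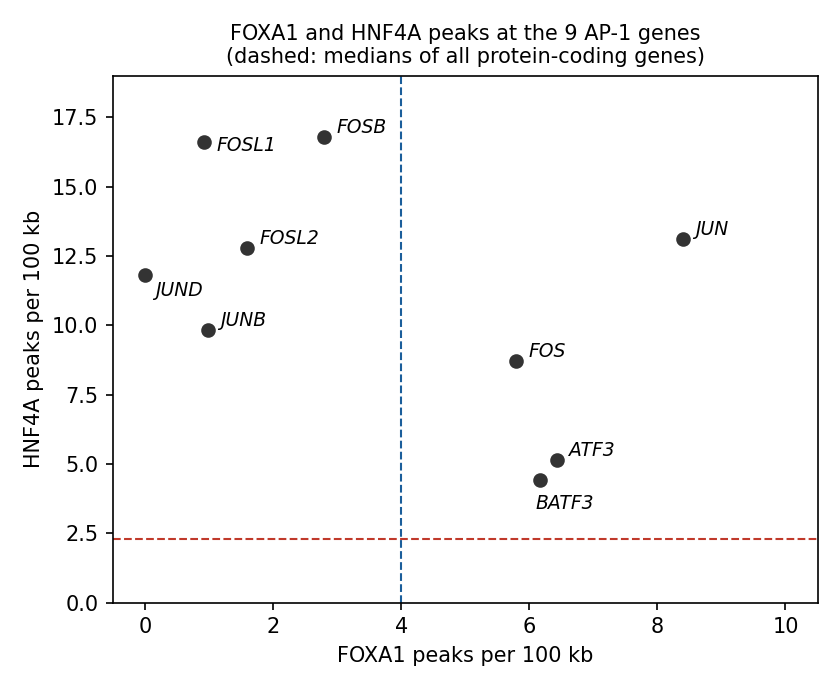
FOXA1 peaks per 100 kb (horizontal axis) against HNF4A peaks per 100 kb (vertical axis) for each AP-1 gene, 1 point per gene, with the medians of protein-coding genes as lines. All peaks are counted, those near starts of other genes included. JUN, FOS, ATF3 and BATF3 lie to the right with 5.80 to 8.40 FOXA1 peaks, and FOSB and FOSL1 lie at the top with 16.8 and 16.6 HNF4A peaks.

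Other genes of the AP-1 pathway, taken from 3 lists, had lower HNF4A medians than the 9 members. Of 17 dimer partners and other leucine zipper factors, all 17 held an HNF4A peak and 16 a FOXA1 peak, with medians of 4.12 and 2.95 per 100 kb, against 2.29 and 4 over all genes. Of 12 kinases, phosphatases and activators upstream of AP-1, 11 held an HNF4A peak and 11 a FOXA1 peak (medians 3.10 and 5.65). Of 12 genes known as AP-1 targets in fibroblasts, 10 held each (3.59 and 2.33). For HNF4A, 12 of 17, 9 of 12 and 7 of 12 genes lay above the median of all genes. The 9 AP-1 genes had a median of 11.8. The 2 genes with most FOXA1 peaks per 100 kb within each list were ATF2 (17.8), a partner of JUN, and NFE2L2 (15.3), the oxidative stress factor NRF2, among the leucine zipper factors, the kinase gene MAP2K4 (13.5) and the phosphatase gene DUSP6 (13.3) among the upstream genes, and the collagenase and stromelysin genes MMP1 (17.5) and MMP3 (15.8), which are neighbours with overlapping windows. All 6 exceeded the 8.40 of JUN.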

How the data were processed

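The authors deposited 1 peak list per construct in hg19 coordinates and a second, down-sampled FOXA1 list. The submitters' processing notes name Bowtie2 2.3.4.1, Picard, GATK 4.2.6.0, bedtools 2.27.1, MACS2 2.2.7.1 and deepTools 3.5.0, without roles or settings. Whether the libraries of a construct were pooled for peak calling is not given in the sources used here. The deposited values are a score per peak in every list and, in all but the FOXA1 lists, a fold enrichment (a ratio) and p- and q-values as −log10, all set by the authors. They were used only to describe and rank peaks within a list. The 6 H2B samples of the 26 in the labels were not analysed here.

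Repeated rows were counted once (19 in FOXA1dbd). Rows with the same peak name but different coordinates were counted separately. Joining them gave 10.6 HNF4A peaks per 100 kb in place of 10.9. FOXA1 rows whose names differ only by the ending _r1 were never joined. Such pairs of equal score lie at JUN (score 242) and in both the ATF3 and BATF3 windows (score 105), with each row counted. Peaks overlapped when they shared at least 1 bp. Densities, presence calls and calls at starts were also computed for all protein-coding genes. Overlap shares, motif shares and scores were set beside those of the whole peak lists. Counts by position and by nearest start have no background. Motifs were searched on both strands without mismatch in 200 bp centred on the summit, or on the midpoint where a row held no summit within its bounds. The midpoint was used for every row of the FOXA1 list. Sequences come from GRCh37 and gene models from GENCODE v44lift37. The members, pathway lists and motifs were chosen with earlier results of these data known. The peaks named are the highest-scoring of each list in a window, those within 1000 bp of a start of the gene, and sites shared by FOXA1 and at least 2 variants, given in full where a comparison turns on them. The few HNF4A peaks named outside this rule are marked as such in the text. From each pathway list the 2 genes with most FOXA1 peaks per 100 kb are named, and the 3 genes most like the AP-1 windows are those nearest by Euclidean distance over log2(peaks per 100 kb + 0.1). Alternatives were flanks of 10 and 100 kb, 50% overlap, a central 100 bp, other definitions of a start, the 50% highest-scoring peaks and the down-sampled list. Computations used Python 3.11.15, pandas 2.3.3, scipy 1.17.1 and pysam 0.24.0, and the code was tested on simulated data. The lists carry no read counts, so depth and detection limits are unknown.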

Additional observations from a re-analysis of the deposited data

How the results depend on the processing

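No paired analysis was possible because a single list stands for each construct, which also leaves no replicate to omit. A density or share was counted as moved when it left the 95% counting interval of the reported value, and a count of genes when it changed by over 1.5 times. By this measure 22 alternative values moved and 59 did not. Since the intervals are wide, some of the 59 also changed by over 1.5 times. In the central 100 bp the forkhead share of HNF4A peaks went from 6.48% to 2.78%, and the AP-1 core share from 14.8% to 9.26% for HNF4A and from 6.90% to 3.45% for FOXA1nhaa. FOXA1dbd went from 1.01 to 1.65 per 100 kb with flanks of 10 kb, and its overlap with FOXA1 from 27.8% to 15.4% with the down-sampled list. FOXA1rraa went from 1.92 to 1.21 per 100 kb without rows of the FOXA1 list, and the HNF4A overlap from 8.33% to 5.17% with flanks of 100 kb. With the down-sampled FOXA1 list, FOXA1 fell to 1.31 peaks per 100 kb (median gene 0.919) in 5 of 9 genes, and FOXA1nhaa overlapped 23.1% of its peaks. With flanks of 10 kb, HNF4A rose to 19.1 (median gene 2.33) and FOXA1rraa to 3.95 per 100 kb (median gene 1.27). With the same flanks 3 genes had a FOXA1dbd peak, and FOXA1rraa overlapped 85.7% of FOXA1 peaks. With 100 kb, HNF4A gave 8.10 per 100 kb, and without peaks near starts, an alternative chosen after seeing the data, it gave 6.27. Counting only the 5′ end of the gene as its start left 0 genes for FOXA1, 0 for FOXA1nhaa and 0 for FOXA1rraa. Within 2500 bp of a start there were 3 genes for FOXA1, 1 for FOXA1dbd and 2 for FOXA1rraa. In the central 100 bp, the AP-1 core share was 0 for FOXA1, 0 for FOXA1dbd and 0 for FOXA1rraa, and the forkhead share was 3.45% for FOXA1nhaa and 0 for FOXA1rraa. FOXA1rraa without rows of the FOXA1 list overlapped 30.6% of FOXA1 peaks, all through rows it repeats from FOXA1nhaa. HNF4A overlapped 0 at an overlap of 50%. The smaller windows and lists hold fewer peaks by construction, and beyond that the cause was not tested.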

Other observations

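The 3 protein-coding genes whose 5 peak densities were closest to those of the 9 AP-1 windows together, among genes whose windows overlap none of the 9, were MMACHC, a gene of vitamin B12 metabolism, CDCA5, which encodes the cohesion factor sororin, and CCDC163. They had 10.6, 11.9 and 10.4 HNF4A peaks and 4.42, 3.39 and 4.71 FOXA1 peaks per 100 kb, at distances of 0.373, 0.378 and 0.386 over the 5 lists. None of the 3 belongs to the AP-1 pathway lists.

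In those lists, several genes combined many HNF4A peaks with few FOXA1 peaks. MAFG had 12.8 HNF4A and 0.914 FOXA1 peaks per 100 kb, MAFF 12.1 and 2.59, PLAU 12.0 and 2.77, SRF 11.8 and 3.63 and ATF4 11.7 and 2.91. These 5 genes were chosen after their values were seen.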
